A study of Mus musculus with 14 samples.

Results

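Genes that mark the surface of muscle stem cells (MuSCs, or satellite cells) or carry out their fusion were followed through every assay of a mouse study of Lin28a+ MuSCs. There were 9 of them: Cdh15, Cdh2, Vcam1, Ncam1, Sdc4, Cd34, Cxcr4, Mymk and Mymx. They were matched by symbol to the Ensembl identifiers of the input RNA table and to the Entrez identifiers of the RIP tables, and all 9 were among the 14837 genes of the input table. The study held 14 libraries: control and Lin28a+ MuSCs each gave 2 input RNA-seq, 2 m6A-RIP and 2 Igf2bp3-RIP libraries, and 2 further Lin28a-RIP libraries came from Lin28a+ MuSCs alone. The genotype label was Control or Lin28a positive, the tissue was skeletal muscle, and all cells had been cultured on Matrigel in serum-containing medium. The Lin28a+ cells had been sorted from mice that carry Lin28a-CreERT2 and a Cre-dependent tdTomato, so the mark reports Cre activity from Lin28a and not Lin28a protein, and Lin28a itself was not analysed here. The age of the mice and how the control cells were sorted were not given in the sources used here, and nothing says whether replicates came from separate animals or cultures, so p-values measure only the spread between these libraries.

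Satellite cells sit between a muscle fibre and its basal lamina, held there by cadherins, and they are recognised and sorted by the surface proteins they display. Once activated they divide as myoblasts, recognise each other through adhesion molecules, and merge into multinucleated fibres in a step that needs the membrane proteins Myomaker and Myomerger. In m6A-RIP an antibody pulls down RNA fragments that carry N6-methyladenosine, and in the other RIP assays the antibody is to an RNA-binding protein. Both kinds of count rise with the amount of RNA, so each was also set against the input.

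Total counts ran from 4842915 to 6220960 in the input libraries, from 21350962 to 31830638 in m6A-RIP, from 9215355 to 34142094 in Igf2bp3-RIP and from 33908110 to 36610494 in Lin28a-RIP. Input values are estimated counts that were whole in all libraries, within 0.001, for 6.33% of genes, and some look like averages of several transcripts, so an input total is not a number of reads, and every input CPM and ratio to input rests on it. Levels are given as CPM (counts scaled to the library total, with TMM factors for features tested between 2 groups and without them for untested markers and Lin28a-RIP). They are not per length, so genes were not ranked by level. Marker sums and the ratios of Lin28a-RIP to input, which do set genes side by side, carry this limit. Myogenic identity was checked on Pax7, which was at 142.5 and 154.5 CPM in control, against 193.4 and 188.1 CPM in Lin28a+ libraries, and on Myod1, which was at 4650.5 to 4727.5 CPM in the 4 libraries. Of 10 myogenic markers 9 were tested, 2 higher (Pax7 and Myog) and 4 lower (Megf10, Myf5, Chrna1 and Des, with log2 fold changes of -2.21, -1.21, -0.92 and -0.53), and the 9 summed to 14257.7 and 14453.5 CPM in control, against 12492.6 and 12577.9 CPM in Lin28a+ libraries. In input RNA, markers of endothelial cells summed to at most 0.875 CPM and those of macrophages to at most 3.18 CPM in any library, with 4 and 5 genes of the lists of 10 measured and none of them high enough to test. In m6A-RIP, however, 3 endothelial markers were tested and 2 were higher, Cdh5 (log2 fold change 1.11) and Cldn5 (1.02). The 3 summed to 14.1 and 16.7 CPM in control, against 24.3 and 22.9 CPM in Lin28a+ libraries. None of the 3 was in the input table, so they could not be set against RNA. In the same assay 0 macrophage markers had a row. Of 10 pericyte and smooth muscle markers, 5 were tested, of which 4 (Mcam, Pdgfrb, Acta2 and Notch3) were higher and 1 (Rgs5) lower in Lin28a+ MuSCs. Mcam rose from 6.74 and 5.79 CPM to 56.4 and 56.0 CPM (log2 fold change 3.17) and Pdgfrb by 1.27 on the log2 scale. These 5 summed to 5599.3 and 5553.9 CPM in control, against 7693.0 and 7676.8 CPM in Lin28a+ libraries, nearly all of it Acta2, while Myh11 was at most 0.0804 CPM. Of 10 fibro-adipogenic markers, 4 were tested, 1 higher and 3 lower, summing to 158.8 and 164.9 CPM in control, against 81.2 and 81.2 CPM in Lin28a+ libraries, most of it Gsn, while Pdgfra was at most 0.235 CPM. Of 10 Schwann cell markers, 2 were tested and 1, Pmp22, was higher, and these 2 summed to 7.49 and 6.76 CPM in control, against 36.6 and 32.7 CPM in Lin28a+ libraries. The part of these differences in the results below was not tested.

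RefSeq promoters on GRCm38.p6 were matched for 4 of the 9 genes: Cdh15, Sdc4, Cd34 and Cxcr4. Since myogenic bHLH factors such as MyoD bind E-boxes, the 250 bases before the start were searched for CANNTG, which reads the same on both strands. Promoters of 1 gene whose RNA rose and 2 whose RNA fell are shown 5′ to 3′, with any E-box in capitals. They lie at chr8:122848124-122848373 (plus strand), chr2:164443189-164443438 (minus strand) and chr1:128592300-128592549 (minus strand).

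Cdh15 promoter: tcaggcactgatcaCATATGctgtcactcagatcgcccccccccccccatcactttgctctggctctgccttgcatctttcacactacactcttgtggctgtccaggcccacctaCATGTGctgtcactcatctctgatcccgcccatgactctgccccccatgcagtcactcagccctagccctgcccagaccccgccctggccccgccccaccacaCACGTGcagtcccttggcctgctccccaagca
Sdc4 promoter: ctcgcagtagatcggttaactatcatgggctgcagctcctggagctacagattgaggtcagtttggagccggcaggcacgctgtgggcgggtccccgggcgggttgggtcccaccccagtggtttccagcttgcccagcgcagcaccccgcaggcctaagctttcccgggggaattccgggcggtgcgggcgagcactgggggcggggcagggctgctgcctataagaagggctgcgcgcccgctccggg
Cxcr4 promoter: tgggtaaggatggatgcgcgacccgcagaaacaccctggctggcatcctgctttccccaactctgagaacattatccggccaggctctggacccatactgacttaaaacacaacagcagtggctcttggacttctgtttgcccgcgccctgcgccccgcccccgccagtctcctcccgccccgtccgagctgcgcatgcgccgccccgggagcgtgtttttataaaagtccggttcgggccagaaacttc

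The Cdh15 promoter held 3 E-boxes, which began 236, 135 and 32 bases before the start. Those of Sdc4, Cxcr4 and Cd34 held 0. Of 32851 RefSeq promoters of this length, 66.2% held at least 1, 12.2% held at least 3 and 33.8% held none. A match describes the letters and is not a bound site.

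In RNA, 2 of the 8 genes tested were higher and 6 were lower in Lin28a+ MuSCs at an adjusted p under 0.05 (edgeR's quasi-likelihood test, Benjamini-Hochberg adjusted), and the libraries of the groups overlapped for none of the 8. Over all 11317 genes tested, 28.1% were higher and 28.7% were lower, and the groups did not overlap in 84.8%, so a call or a gap between groups was by itself common in this comparison. The share called rested on the tool, since DESeq2 called 26.9% of 11317 genes, and 7 of the 8 members, all but Cxcr4. The replicates were close, with a common biological coefficient of variation of 2.48%. In these bulk libraries, fewer cells of a type and less RNA per cell cannot be told apart.

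**Figure D1:**
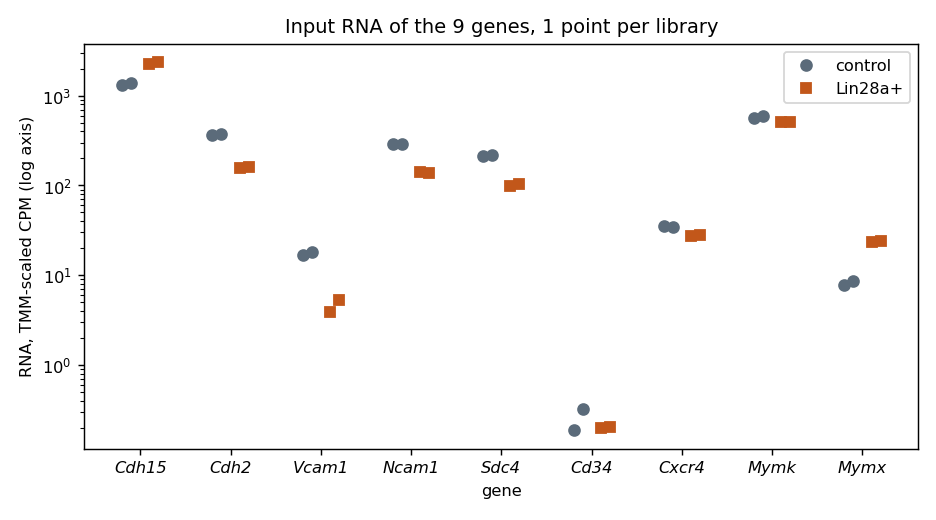
Input RNA of the 9 genes in CPM on a log axis, with 1 point per library (circles, 2 control libraries; squares, 2 Lin28a+ libraries). Cdh15 and Mymx are higher in both Lin28a+ libraries, Cd34 lies under 0.33 CPM in all 4, and the other 6 genes are lower.

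Cdh15 encodes M-cadherin, the calcium-dependent adhesion molecule that joins satellite cells to the fibre and myoblasts to each other (ENSMUSG00000031962, chr8:122848374-122867397). Its RNA was at 1326.0 and 1389.6 CPM in control, against 2272.0 and 2349.9 CPM in Lin28a+ libraries. Both Lin28a+ libraries lay above both controls, a 1.70-fold rise with a log2 fold change of 0.77 (SE 0.032, adjusted p = 2.77e-05). Cdh2, which encodes N-cadherin, the other cadherin by which satellite cells hold to their niche (ENSMUSG00000024304, chr18:16588877-16809246), went the other way. It was at 366.0 and 371.5 CPM in control, against 154.9 and 158.9 CPM in Lin28a+ libraries, 2.35-fold lower (log2 fold change -1.23, SE 0.028, adjusted p = 5.70e-06). The groups of both cadherins were far apart and their replicates nearly equal.

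Vcam1 encodes an immunoglobulin-type adhesion molecule that binds the integrin α4β1 and is widely used to sort satellite cells (ENSMUSG00000027962, chr3:116110020-116129688). It was at 16.9 and 18.3 CPM in control and fell to 3.93 and 5.32 CPM, the largest change among the 8 genes tested. The fall was 3.82-fold, with a log2 fold change of -1.93 (SE 0.13, adjusted p = 0.000124), and rested on 20 and 26 counts in the Lin28a+ libraries. Ncam1 encodes the neural cell adhesion molecule, which forms homophilic contacts and is carried by myoblasts and denervated fibres (ENSMUSG00000039542, chr9:49502129-49799393). It fell 2.08-fold, from 291.3 and 290.9 CPM to 141.1 and 138.2 CPM (log2 fold change -1.06, SE 0.027, adjusted p = 7.30e-06). RefSeq places the lncRNA Gm11149 inside Ncam1, and whether the counting used strand was not given, so reads of the pair cannot be told apart.

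Sdc4 encodes the heparan sulfate proteoglycan syndecan 4, a co-receptor for growth factors on satellite cells (ENSMUSG00000017009, chr2:164424247-164443188). It fell from 210.4 and 218.0 CPM to 97.5 and 102.8 CPM, which was 2.14-fold (log2 fold change -1.10, SE 0.039, adjusted p = 1.63e-05). Cd34 encodes a sialomucin found on quiescent satellite cells and on endothelium (ENSMUSG00000016494, chr1:194938821-194961292). Its estimated counts were 1 and 2 in control and 1 and 1 in Lin28a+ libraries, within the 3 counts taken as the floor, so the gene was not tested and no fold is given. It overlaps the lncRNA Gm16897. The endothelial marker Pecam1 was at 0.392 to 0.501 CPM in the same libraries.

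Cxcr4 encodes the receptor for the chemokine Cxcl12, which guides migrating myogenic cells (ENSMUSG00000045382, chr1:128588199-128592299). It was at 35.0 and 34.6 CPM in control, against 27.7 and 28.0 CPM in Lin28a+ libraries, a log2 fold change of -0.32 (SE 0.049, adjusted p = 0.00917). The groups did not overlap, but the call was lost without 1 Lin28a+ library (adjusted p = 0.055, log2 fold change -0.31) and with DESeq2 (adjusted p = 0.327).

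The genes of the fusion proteins changed in opposite directions. Mymk encodes Myomaker, which must be present for the membranes of myoblasts to mix (ENSMUSG00000009214, chr2:27061636-27072161). It was at 567.2 and 598.6 CPM in control, against 510.2 and 506.4 CPM in Lin28a+ libraries, a small fall of 1.15-fold (log2 fold change -0.20, SE 0.033, adjusted p = 0.00325). Mymx encodes Myomerger, also called Minion, the small protein that completes the opening of the fusion pore (ENSMUSG00000079471, chr17:45600961-45602196). It rose 2.91-fold, from 7.87 and 8.53 CPM to 23.6 and 24.3 CPM (log2 fold change 1.54, SE 0.073, adjusted p = 3.92e-05). The control values rested on 42 and 53 counts. That the changes of Mymk and Mymx differ from each other was not tested.

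**Figure D2:**
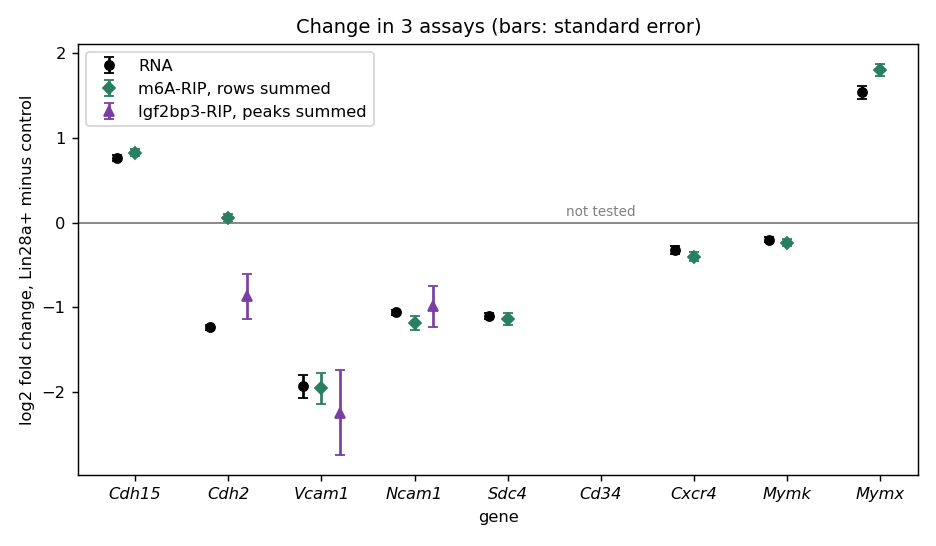
Log2 fold change (Lin28a+ minus control) of the 9 genes in input RNA (circles), m6A-RIP with the rows of a gene summed (diamonds) and Igf2bp3-RIP with the peaks of a gene summed (triangles), with bars for the standard error. RNA and m6A lie close together for 7 genes, whereas Cdh2 has -1.23 in RNA and 0.05 in m6A.

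The m6A-RIP table held 20 rows of 8 of the genes, and none of Cd34. Each row is a counted stretch assigned to a transcript. The table holds no positions, so rows are named here by their order within the gene. Whether a row lies inside the gene it is named for could not be checked. Of peaks that could be matched to a RefSeq gene, 86.1% in Lin28a-RIP and 80.6% in Igf2bp3-RIP lay inside it. Of the 20 rows, 4 were higher, 13 were lower and 3 did not pass the test, against 30.0% higher and 31.8% lower over all 18881 rows. Without TMM factors the median of all rows moved to -0.15 on the log2 scale and the share of calls that were higher fell from 48.5% to 33.5%. The members then had 4 rows higher and 15 lower, the first row of Cxcr4 and the first of Mymk having joined the lower ones.

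Summed per gene, m6A-RIP counts were higher for 2 of 8 genes and lower for 5, and did not pass the test for Cdh2 (over all 9416 genes, 32.5% were higher and 33.8% were lower). Cdh15 went from 314.7 and 312.3 CPM in control to 557.4 and 557.0 CPM in Lin28a+ libraries, a log2 fold change of 0.83 (SE 0.038). Mymx, with a single row, went from 31.5 and 27.4 CPM to 107.2 and 100.6 CPM, which was 3.50-fold (log2 fold change 1.81, SE 0.072). In both genes every Lin28a+ library lay above every control library, as in RNA and in 41.2% of all genes of this table.

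Vcam1 and Ncam1, also with a single row each, fell. Vcam1 was at 13.7 and 17.0 CPM in control, against 3.44 and 4.40 CPM in Lin28a+ libraries (log2 fold change -1.95, SE 0.18). Ncam1 was at 38.2 and 36.7 CPM in control, against 16.9 and 16.2 CPM in Lin28a+ libraries (log2 fold change -1.18, SE 0.083). Sdc4 fell from 51.8 and 51.2 CPM to 22.9 and 23.8 CPM (log2 fold change -1.14, SE 0.072). The m6A-RIP counts of these 3 surface genes were thus 2.20-fold to 3.87-fold lower, with no overlap of groups, as in 41.4% of all genes with Lin28a+ lower (82.6% in either direction). The falls of Cxcr4, from 98.8 and 94.6 to 73.0 and 73.7 CPM, and of Mymk, from 300.1 and 303.4 to 249.6 and 262.0 CPM, were smaller, at log2 fold changes of -0.40 (SE 0.049) and -0.24 (SE 0.042). The adjusted p of these 7 genes ran from 5.12e-10 to 0.000268.

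Cdh2 was the exception. Its summed m6A-RIP counts were 251.7 and 249.7 CPM in control, against 274.7 and 246.3 CPM in Lin28a+ libraries, so the groups overlapped although RNA had fallen 2.35-fold. The log2 fold change was 0.05 (SE 0.051, adjusted p = 0.363). Its sign was not stable, since it was -0.05 without TMM factors and -0.02 without 1 Lin28a+ library, and 0.13 (adjusted p = 0.0285) without the other. The 5 rows behind this sum did not move alike. The first row was at 154.4 and 143.3 CPM in control, against 241.3 and 205.7 CPM in Lin28a+ libraries, which was 1.50-fold higher (log2 fold change 0.58, SE 0.068, adjusted p = 4.46e-06). It stayed past the threshold under all 9 alternatives run, at 0.47 to 0.70 with 1 library left out.

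The other 4 rows of Cdh2 fell, as its RNA did. The second row went from 31.0 and 31.7 CPM to 14.4 and 15.7 CPM (log2 fold change -1.06), and the third from 25.1 and 28.4 CPM to 10.3 and 13.1 CPM (-1.18). The fourth went from 16.1 and 18.3 CPM to 6.03 and 6.17 CPM (-1.49), and the fifth, on another transcript of the gene, from 21.1 and 22.9 CPM to 8.30 and 9.83 CPM (-1.27). No Lin28a+ library reached a control library in any of these 4 rows, and none went below one in the first. Such a gap was common, in 40.7% of all rows with Lin28a+ lower, 40.0% with Lin28a+ higher and 80.6% in either direction. The first row held 62.3% and 58.6% of the Cdh2 m6A-RIP counts in control and 86.1% and 82.1% in Lin28a+ libraries.

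**Figure D3:**
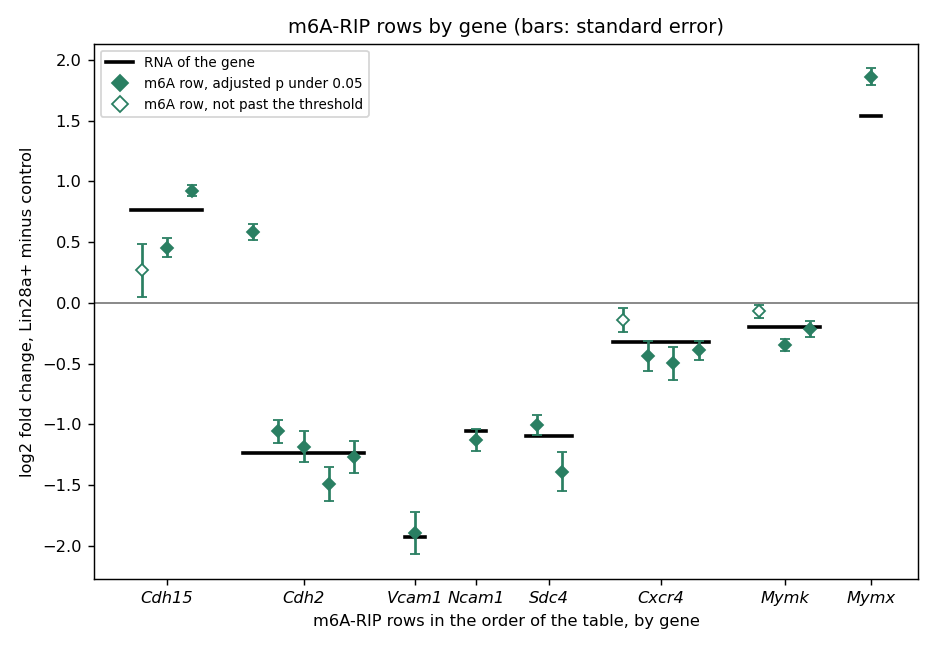
Log2 fold change of each of the 20 m6A-RIP rows (diamonds, filled where the adjusted p was under 0.05, with bars for the standard error), grouped by gene, with a black line at the RNA change of the gene. The first row of Cdh2 lies at 0.58, above 0, while its other 4 rows lie between -1.06 and -1.49, around the RNA change.

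A test of each row against its gene (edgeR's diffSpliceDGE) was added after the rows had been seen and used the same counts. It called 7.79% of 14366 rows, and 6 of the 17 rows of the 5 members with more than 1 row. All 5 rows of Cdh2 were among them. The first changed by 0.48 more than the gene on the log2 scale (adjusted p = 0.000205), and the others by -1.17, -1.29, -1.60 and -1.38. Since the first row held most of the Cdh2 counts, the change of the gene follows it, and these 5 calls are not separate evidence. The sixth was the second row of Cdh15, which changed by -0.43 relative to its gene (adjusted p = 0.00153). That row rose from 26.2 and 26.4 CPM to 35.8 and 36.3 CPM (log2 fold change 0.46), and the third row, which held 89.9% to 92.8% of the Cdh15 counts, from 279.9 and 274.9 CPM to 527.8 and 525.3 CPM (0.92). The first row of Cdh15 was at 3.64 and 4.61 CPM in control, against 4.97 and 4.88 CPM in Lin28a+ libraries. It changed by -0.62 relative to its gene, further than the second row, but did not pass (unadjusted p = 0.00633, adjusted p = 0.0737), nor did it in the comparison of groups (adjusted p = 0.298). In Sdc4, Cxcr4 and Mymk 0 of 9 rows differed from their gene at an adjusted p under 0.05, with adjusted p from 0.376 to 1.00, and 0 at an unadjusted p under 0.05, where 2155 of all 14366 rows were.

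Within Cxcr4 the log2 fold changes of the rows were -0.14, -0.44, -0.50 and -0.39, the first not past the threshold (adjusted p = 0.230). The calls of the second and the third rows were each lost without 1 library (adjusted p = 0.0563 and 0.0658). Within Mymk the rows changed by -0.07, -0.35 and -0.22, the first again not past the threshold (adjusted p = 0.287), and the call of the third was lost without 1 Lin28a+ library (adjusted p = 0.0643). Both rows of Sdc4 fell, 2.01-fold and 2.62-fold.

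With m6A-RIP set against input in 1 model, the change in m6A differed from that in RNA in 1 of the 8 genes, Cdh2, which was 1.29 higher in m6A on the log2 scale (SE 0.072, adjusted p = 2.45e-06). Over all 7408 genes, 7.26% differed, and 3.35% in this direction. Without the first row, the difference of Cdh2 was -0.02 (adjusted p = 0.981), and the remaining rows, each lower on its own, summed to a change of -1.26. That row was left out after its rise had been seen, so the choice fixed the direction of these values, which are a description only. The other 7 differences lay between -0.12 for Ncam1 (SE 0.061) and 0.27 for Mymx (SE 0.18), with adjusted p from 0.428 to 1.00. For Vcam1, at -0.0041 (SE 0.25), the error is wide, and the sign changed without some of the libraries and with RLE factors. This model fitted 1 spread per gene over both assays. An error can therefore lie under that of m6A-RIP alone (Ncam1, 0.061 against 0.083).

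Igf2bp3 is an RNA-binding protein of the insulin-like growth factor 2 mRNA-binding family, known as a reader of m6A that steadies its targets. Its RIP table held 17 peaks in 3 of the 9 genes: 12 in Cdh2, 4 in Ncam1 and 1 in Vcam1. It named 4527 genes in all, against 14837 of the input, so a gene without a peak was the usual case. All 17 lay inside their gene, as did 80.6% of all peaks that could be matched to a RefSeq gene. Cdh2 was among the genes with many peaks, since 6.94% of the 4527 genes in the table had 12 or more and the median was 3. The peaks of Cdh2 began 97 to 61525 bases from the low-coordinate end of the gene, leaving most of its length without a peak, and were 202 to 407 bases wide.

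All 17 peaks had a negative log2 fold change, from -0.61 to -2.23, but the groups overlapped in 3 of them (the first, sixth and eighth of Cdh2) and edgeR's test called 0 of them, where it called 0.123% of 19465 peaks. At an unadjusted p under 0.05 there were 12 of the 17, against 5.22% of all peaks (3.20% lower in Lin28a+), and DESeq2 called 1, that of Vcam1, and 1.35% of all peaks. The groups did not overlap in 31.8% of all peaks, and in 16.8% with Lin28a+ lower. The spread between replicates was wide in this assay, with a common biological coefficient of variation of 27.9%, and replicate 2 of both groups was the deeper library. These values moved with single libraries. Without control replicate 1 those 3 peaks of Cdh2 were at -0.14, -0.10 and -0.23 and its second and seventh at -0.19 and -0.25. The 3 were at -1.34, -1.30 and -1.35 without control replicate 2 and at -1.43, -1.18 and -1.37 without Lin28a+ replicate 1. By replicate number, the sixth peak was at 144.0 and 61.4 CPM in control, against 70.0 and 45.2 CPM in Lin28a+ libraries, lower within each number. A block on this number, given at the end with its limits, changed the calls. The peaks of a gene share its RNA and are not separate evidence.

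Summed per gene, Cdh2 was at 1046.3 and 746.7 CPM in control, against 510.6 and 470.2 CPM in Lin28a+ libraries (log2 fold change -0.87, SE 0.27, adjusted p = 0.445). Ncam1 was at 365.4 and 526.1 CPM in control, against 223.1 and 227.1 CPM in Lin28a+ libraries (log2 fold change -0.99, SE 0.24, adjusted p = 0.293). Vcam1 was at 11.8 and 7.25 CPM in control, against 2.85 and 1.30 CPM in Lin28a+ libraries (log2 fold change -2.24, SE 0.50, adjusted p = 0.223). In all 3 genes the control libraries lay above the Lin28a+ libraries, as in 19.7% of all genes of the table. None passed edgeR's test without a replicate block (0.287% of 4527 genes did), and the block is given at the end. By that test 3 of 3 had an unadjusted p under 0.05, against 8.44% of all genes (4.66% lower in Lin28a+). DESeq2 called 2, Vcam1 and Ncam1, and 2.54% of all genes. Vcam1 was called when control replicate 2 was left out (-2.57, adjusted p = 0.0192) and when Lin28a+ replicate 1 was (-2.84, adjusted p = 0.0343), but not without control replicate 1 (-1.86, adjusted p = 0.116) or Lin28a+ replicate 2 (-1.69, adjusted p = 0.338).

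Set against input, the change in Igf2bp3-RIP of these genes was not shown to differ from that in RNA. The differences were 0.13 for Cdh2 (SE 0.25, adjusted p = 0.778), -0.16 for Ncam1 (SE 0.26, adjusted p = 0.744) and -0.57 for Vcam1 (SE 0.58, adjusted p = 0.589), and 0 of 3 had an unadjusted p under 0.05, where 25.0% of all genes had. Over all 3710 genes edgeR's interaction test called 1.35%. The standard errors are wide, and all 3 signs turned without 1 or another Igf2bp3-RIP library. These errors rest on 1 spread per gene for both assays, so they may understate that of Igf2bp3-RIP.

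Lin28a-RIP was made from Lin28a+ MuSCs only, so it gives levels and no comparison. Its table held 30 peaks assigned to 4 of the 9 genes: 16 in Cdh2, 12 in Ncam1, 1 in Cdh15 and 1 under the name of Cxcr4. The genes Vcam1, Sdc4, Mymk and Mymx, expressed in these cells, had 0. Of the 11317 genes tested in RNA, 2868 had a Lin28a-RIP peak, so having none was the usual case. Cdh2 summed to 981.5 and 1052.7 CPM and Ncam1 to 843.4 and 848.8 CPM of their libraries. Divided by input CPM, Cdh2 stood at 6.43 and Ncam1 at 6.01, against a median of 3.13 over 2868 genes with a Lin28a-RIP peak and input RNA, which put them at percentiles 65.8 and 64.2. This ratio grows with the stretch that was called as peaks, which was 5121 bases in Cdh2 and 3309 in Ncam1, against a median of 1593.5 bases and 4 peaks over these genes, so their rank was not read further. Per 100 bases of peak the mean was 19.9 CPM in Cdh2, 25.6 CPM in Ncam1 and 4.77 CPM in the median gene, not set against input.

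Cdh15 had the lowest ratio of the 4, at 0.018 (percentile 0.139), over 1 peak only, whose level per 100 bases was 20.1 CPM. Its only peak, 212 bases wide at chr8:122866672-122866883 and 514 bases from the end of the gene, was at 45.4 and 39.7 CPM, although Cdh15 RNA was at 2272.0 and 2349.9 CPM in the same cells. The peak named for Cxcr4, at chr1:128521062-128521383, lay 66816 bases outside that gene and inside the pseudogene Gm6170. It was at 10.2 and 24.1 CPM in the 2 libraries, a wide spread, and was not read as binding of Cxcr4 RNA.

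**Figure D4:**
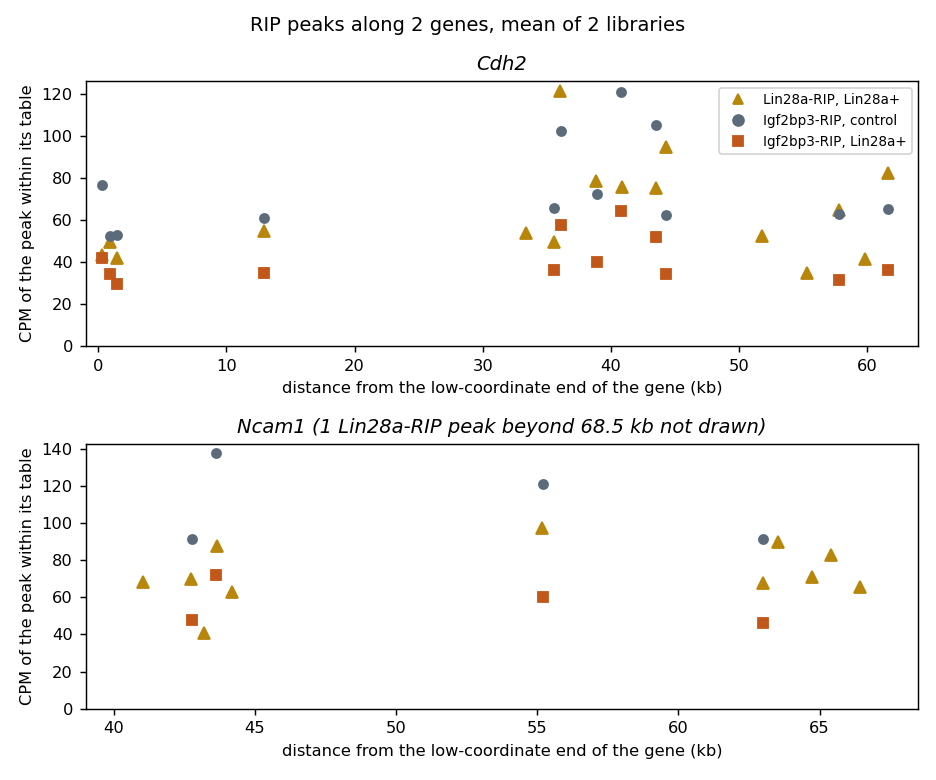
Peaks along Cdh2 and Ncam1: Lin28a-RIP in Lin28a+ MuSCs (triangles) and Igf2bp3-RIP in control (circles) and Lin28a+ MuSCs (squares), as the mean CPM of 2 libraries within each table, against the distance in kb from the low-coordinate end of the gene. All Igf2bp3-RIP peaks share their place with a Lin28a-RIP peak, and each has a lower mean in Lin28a+ than in control cells, although the libraries of the groups overlap in 3 peaks of Cdh2.

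Peaks of both proteins fell on the same stretches. Of the 12 Igf2bp3-RIP peaks of Cdh2, 12 overlapped a Lin28a-RIP peak of the gene, by 202 bases or more, and of the 4 of Ncam1, 4 did, by 201 bases or more. Among genes in both tables, 77.1% of Igf2bp3-RIP peaks overlapped a Lin28a-RIP peak, so this is the common case. In the other direction 12 of the 16 Lin28a-RIP peaks of Cdh2 and 4 of the 12 of Ncam1 were shared, against 57.4% of such peaks over all. Per 100 bases of peak, the Lin28a-RIP peaks of Cdh2 ran from a mean of 9.22 CPM for the first to 31.3 CPM for the eighth. In Ncam1, 10 of 12 Lin28a-RIP peaks and 4 of 4 Igf2bp3-RIP peaks also lay in the stretch of the lncRNA Gm11149, and the twelfth Lin28a-RIP peak, at 42.1 and 42.4 CPM, lay alone at the far end of the gene. Whether these peaks lie in exons, introns or UTRs was not analysed here.

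Genes that work with these 9 were taken from 5 lists. In the list of recognition, adhesion and fusion machinery, 43 genes were tested in RNA, 6 higher and 23 lower, where 28.1% of all genes were higher and 28.7% lower, 56.8% together (median log2 fold change -0.27, against 0.01 over all genes). The largest rises were those of Itga3, an integrin subunit (1.28), the membrane raft protein Flot2 (0.56) and the phospholipid-binding annexin Anxa5 (0.44). Dock5, an exchange factor of the small GTPase Rac, fell by 2.09, and Dysf, which encodes the membrane repair protein dysferlin, by 1.56. One of 2 identifiers listed as Arhgap26 (ENSMUSG00000118193), a GTPase-activating protein, was also lower, at 2.25 and 4.34 CPM in control, against 0.393 and 0.204 CPM in Lin28a+ libraries, the latter only 2 and 1 counts.

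Among the partners of cadherins, 5 of 10 genes tested were called, no larger a share than among all genes, and all 5 were lower, with a median of -0.24. Cdh11, another cadherin, fell from 55.8 and 57.0 CPM to 2.36 and 2.45 CPM, by 4.54 on the log2 scale. Vinculin (Vcl, -0.46) and p120-catenin (Ctnnd1, -0.46), which link cadherins to the cell's interior, fell less.

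Ligands, receptors and co-receptors of the 9 genes had 1 gene higher and 13 lower of 16 tested (28.1% and 28.7% over all genes), with a median of -0.71. Glypican 1 (Gpc1) rose by 0.17. Syndecan 3 (Sdc3), a relative of Sdc4, fell from 341.9 and 356.1 CPM to 91.2 and 89.8 CPM (-1.95), and the growth factor receptor Fgfr4 fell by 1.34. Itga4, whose product pairs with integrin β1 to bind Vcam1, fell by 1.30 on 8 counts in each Lin28a+ library. Chosen after their values were seen, its partner Itgb1 (-1.01), Ackr3, the other receptor of Cxcl12 (-1.25), and the enzymes St8sia4 (-0.70) and St8sia2 (-0.47), which add polysialic acid to Ncam1, fell too.

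Other satellite cell markers were divided, with 9 higher and 10 lower of 20, where 56.8% of all genes were called (median -0.12). The Notch targets Heyl and Hey1 rose by 3.99 and 1.46 and the teneurin Tenm4 by 0.86, while the transmembrane protein Megf10 fell by 2.21. Rgs4, a regulator of G-protein signalling, was at 4.50 and 3.70 CPM in control, against 0.393 and 0.204 CPM in Lin28a+ libraries. Among differentiation genes, 7 were higher and 22 lower of 33, against the same 28.1% and 28.7% over all genes (median -0.57). The cyclin-dependent kinase inhibitor Cdkn1c was higher (0.562 and 0.322 CPM in control, 11.2 and 10.4 CPM in Lin28a+), cardiac actin Actc1 rose by 3.75 and Myog, the regulator of terminal differentiation, by 1.86. The sarcomere genes Neb, Tnnt2 and Myom2 fell, with log2 fold changes of -2.56, -2.21 and -1.62.

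**Figure D5:**
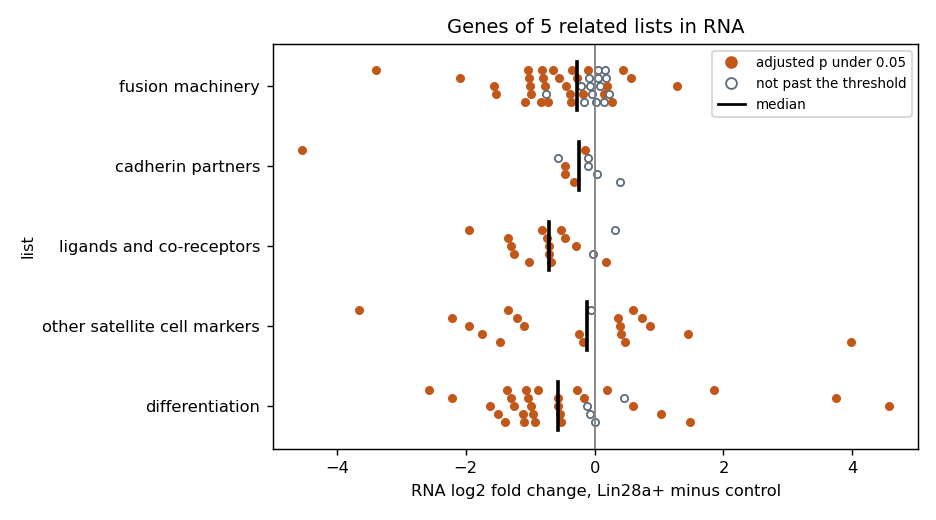
RNA log2 fold change (Lin28a+ minus control) of the genes tested in 5 related lists, 1 point per gene, filled where the adjusted p was under 0.05, with a black bar at the median of each list. The medians run from -0.71 for ligands and co-receptors to -0.12 for other satellite cell markers.

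In m6A-RIP summed per gene 6 genes were higher and 14 lower of 35 for the fusion machinery, 1 and 5 of 10 for cadherin partners, 3 and 11 of 17 for ligands and co-receptors, and 8 and 19 of 28 for differentiation, against 32.5% higher and 33.8% lower over all 9416 genes, so the shares called in the first 2 lists were no larger than the 66.3% over all. The other satellite cell markers had 9 higher and 7 lower of 18. Without TMM factors the counts were 4 and 16 for the fusion machinery, 1 and 7 for cadherin partners, 2 and 12 for ligands and co-receptors, 6 and 20 for differentiation, and 8 and 8 for the other satellite cell markers, which then no longer had more genes higher than lower. Of named genes, Megf10 (0.71, adjusted p = 0.0167) and Myom2 (0.14, adjusted p = 0.0313) had a positive m6A change beside a fall in RNA, that of Myom2 not called without TMM factors (0.039, adjusted p = 0.521), and Cdh11 fell by 0.93 in m6A against 4.54 in RNA.

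Likeness was measured as the Euclidean distance in the log2 fold changes of RNA and m6A per gene, over 2 comparisons of 2 against 2 libraries and 7415 genes. Nearest to Mymx were Them6 (distance 0.032), Kif22 (0.081) and 1700025G04Rik (0.095). Nearest to Vcam1 were F11r (0.0059), itself an immunoglobulin-type junction protein, Igsf11 (0.024) and Brinp3 (0.053).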

How the data were processed

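The 14 libraries were mapped to groups by their titles. Per the submitters' processing notes and the methods, reads were cleaned (FastQC) and aligned with HISAT2 2.0.4, peaks were called with MACS2 (version given as 1.4.3) and transcriptomes were compared with DESeq2 1.42.0; both GRCh38 and mm10 are named as builds, while the identifiers are those of mouse. The counting program, peak threshold, control library and pooling were not given in the sources used here. For m6A-RIP, Igf2bp3-RIP and Lin28a-RIP the authors deposited raw counts per row or peak. The input table, as deposited, gives an estimated count for each gene, mostly not whole, rounded here; its column sums served as library totals but are not read numbers. The 2 Lin28a+ columns of the input table are headed with m6A-RIP names. They were taken as input because the labels of the Lin28a+ input samples name this table. Every Lin28a+ RNA value, and every comparison of RIP with RNA, rests on that reading. The 2 Lin28a+ m6A-RIP columns share 1 name. Both pairs were assigned to their group only, since no replicate number was usable. Replicates differed by more than sampling noise (chi-square over degrees of freedom 1.67 to 36.4, where 1 is sampling noise alone).

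Tests were edgeR 4.0.16 quasi-likelihood fits in R 4.3.3 over the whole table, with TMM factors, filterByExpr (minimum count 10) and Benjamini-Hochberg adjustment, called at 0.05. RIP relative to input was the interaction of cells and assay in 1 model, with 1 spread per gene fitted over both assays. With 2 libraries per group, errors rest on a spread shared among features, and they cover counting error and the spread between libraries only. Floors are 3 counts. Fits were checked on simulated data. Positions are RefSeq GRCm38.p6 for genes and as deposited for peaks; at least 99.96% of identifiers had a symbol. The 9 genes, the lists and the tests were chosen with earlier results of these data known. Named were all 9 genes, and from each related list the 3 largest rises and the 3 largest falls in RNA among calls without overlap of libraries; others are said to be chosen later. Alternatives were other scaling, other filters, DESeq2, a replicate block and each library left out.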

Additional observations from a re-analysis of the deposited data

How the results depend on the processing

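Of the RNA log2 fold changes of the 8 genes under 9 alternatives each, 70 of 72 kept direction and side of the threshold, and both exceptions were Cxcr4. Of those of the m6A rows, 175 of 180 did, and 0 reversed. Summed m6A of Cdh2 reversed with total counts (-0.0469), without its first row (-1.26) and in 1 of 4 fits without a single library, which ran from -0.0234 to 0.13, the last being called. Relative to RNA, Cdh2 reversed without its first row (-0.0202), an alternative chosen after seeing the data, which left 0 members called; Vcam1, never past the threshold, reversed to 0.0035 with RLE factors, to 0.0029 with at least 10 counts in every library, and ran from -0.21 to 0.22 without single libraries. For Igf2bp3-RIP relative to RNA, values without single libraries ran from -0.0865 to 0.39 for Cdh2, from -0.40 to 0.13 for Ncam1 and from -1.11 to 0.0313 for Vcam1, none called. With DESeq2, calls were 3039 RNA genes in place of 6432, 263 Igf2bp3-RIP peaks in place of 24 (1 of a member) and 115 Igf2bp3-RIP genes in place of 13 (2 members). At least 10 counts in every library left 0 Igf2bp3-RIP peaks called, and total counts gave 7 Igf2bp3-RIP genes and 114 relative to RNA in place of 50. Without 1 library, calls ran from 108 to 193 Igf2bp3-RIP peaks (members 0 to 1), from 39 to 73 genes (members 0 to 1), from 297 to 604 genes for m6A relative to RNA in place of 538 and from 0 to 617 for Igf2bp3-RIP relative to RNA; the cause was not tested. Of m6A genes, calls ran from 5785 to 5856.

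The labels of Igf2bp3-RIP share replicate numbers 1 and 2. The difference of replicate 2 from replicate 1 correlated between groups (r = 0.703 across 19465 peaks, which are not independent), but with 2 pairs and no label of a shared batch the samples share only a number. With a replicate block, 1988 peaks and 374 genes were called, and all 17 peaks and 3 genes of the members, each lower in Lin28a+ MuSCs. For input and m6A-RIP no paired analysis was possible because the Lin28a+ columns carry no usable replicate number. Depth limits Cd34 and the Lin28a+ level of Vcam1.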
